A study of Homo sapiens with 18 samples.

Results

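Eph receptors are the largest family of receptor tyrosine kinases, and ephrins are their ligands on the surface of neighbouring cells. The genes described here are 10 members of both families that are known for cell positioning and adhesion in gut epithelium: the receptors EPHA1, EPHA2, EPHA4, EPHB2, EPHB3 and EPHB4 and the ephrins EFNA1, EFNA4, EFNB1 and EFNB2. They were chosen by symbol, through the probe sets tied to that symbol alone. Of the 10, 9 had such probe sets, 24 in number, out of 44994 probe sets with 1 symbol and 18132 genes. EPHB2 was not analysed here.

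Expression was measured on 18 Affymetrix arrays of the human colorectal cancer lines HT29 and WiDr, in 6 groups of 3 arrays. The groups were HT29 with AZ628, HT29 with vehicle, WiDr with AZ628, WiDr with vehicle, WiDr transduced with an shRNA against IKKα, and WiDr transduced with a control shRNA. HT29 and WiDr are epithelial lines that carry an activated BRAF kinase, and WiDr is thought to stem from HT29, so they are not independent tumours. AZ628 is a RAF kinase inhibitor, and IKKα, the product of CHUK, is a kinase best known from NF-κB signalling. The series title asks whether BRAF-driven tumorigenesis needs IKKα. The labels leave out the dose of AZ628 and its duration, how many shRNA sequences were used and whether transduced cells were clones or pools. Nor do they state separate cultures for the 3 arrays in each group, so p-values rest on a spread that may be technical.

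As background, ephrins of class A are held in the membrane by a lipid anchor and mostly bind EphA receptors, whereas class B ephrins span the membrane and mostly bind EphB receptors. Binding between neighbouring cells sends a signal into both and usually drives repulsion or changes in adhesion. In the intestine, EphB receptors are known as Wnt target genes that are high at the crypt base, and class B ephrins are higher towards the surface, a counter-gradient that keeps cell types in place. EphA2 is known as a receptor whose transcription follows RAS and ERK signalling, and ephrin-A1 as its preferred ligand.

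The signals are log2 values per probe set, and each gene is read from the brightest of its probe sets on average. A difference of 1 is a 2-fold change, and because probes differ in brightness, signals are compared between groups and not between genes. Arrays of 1 group correlated at 0.997 or more over the genes, and no 2 arrays were identical. CHUK was 7.52 ± 0.25 in cells with IKKα shRNA and 9.64 ± 0.17 in cells with control shRNA (SD, n = 3 each), a log2 difference of -2.12 (limma adjusted p = 4.11e-10). DUSP6, a phosphatase gene read as a measure of ERK activity, differed by -4.67 with AZ628 in HT29 and by -4.14 in WiDr, and by 0.12 with IKKα shRNA (adjusted p = 0.601). Of 10 colon epithelium markers 7 lay in the brightest tercile of genes and 0 in the dimmest, and 0 of 7 fibroblast, 0 of 5 blood and 0 of 5 endothelium markers lay in the brightest. The cultures were measured in bulk, so fewer cells of a type and less RNA per cell cannot be told apart.

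With AZ628, EPHA2 fell and EFNA1 rose in both lines, and these were the largest changes among the 9 genes in WiDr and in HT29. EPHA1 and EPHB3 also fell and EFNA4 rose in both lines, and in HT29 EPHA4 fell and EPHB4 rose. With IKKα shRNA, EPHA2, EFNA4 and EFNB2 rose while EPHB3, EFNA1 and EPHA1 fell, all by less than 2-fold. The lines themselves differed in 8 of the 9 genes with vehicle, where 32.2% of all genes passed, and EFNB2 and EPHA4 differed by more than 2-fold.

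**Figure D1:**
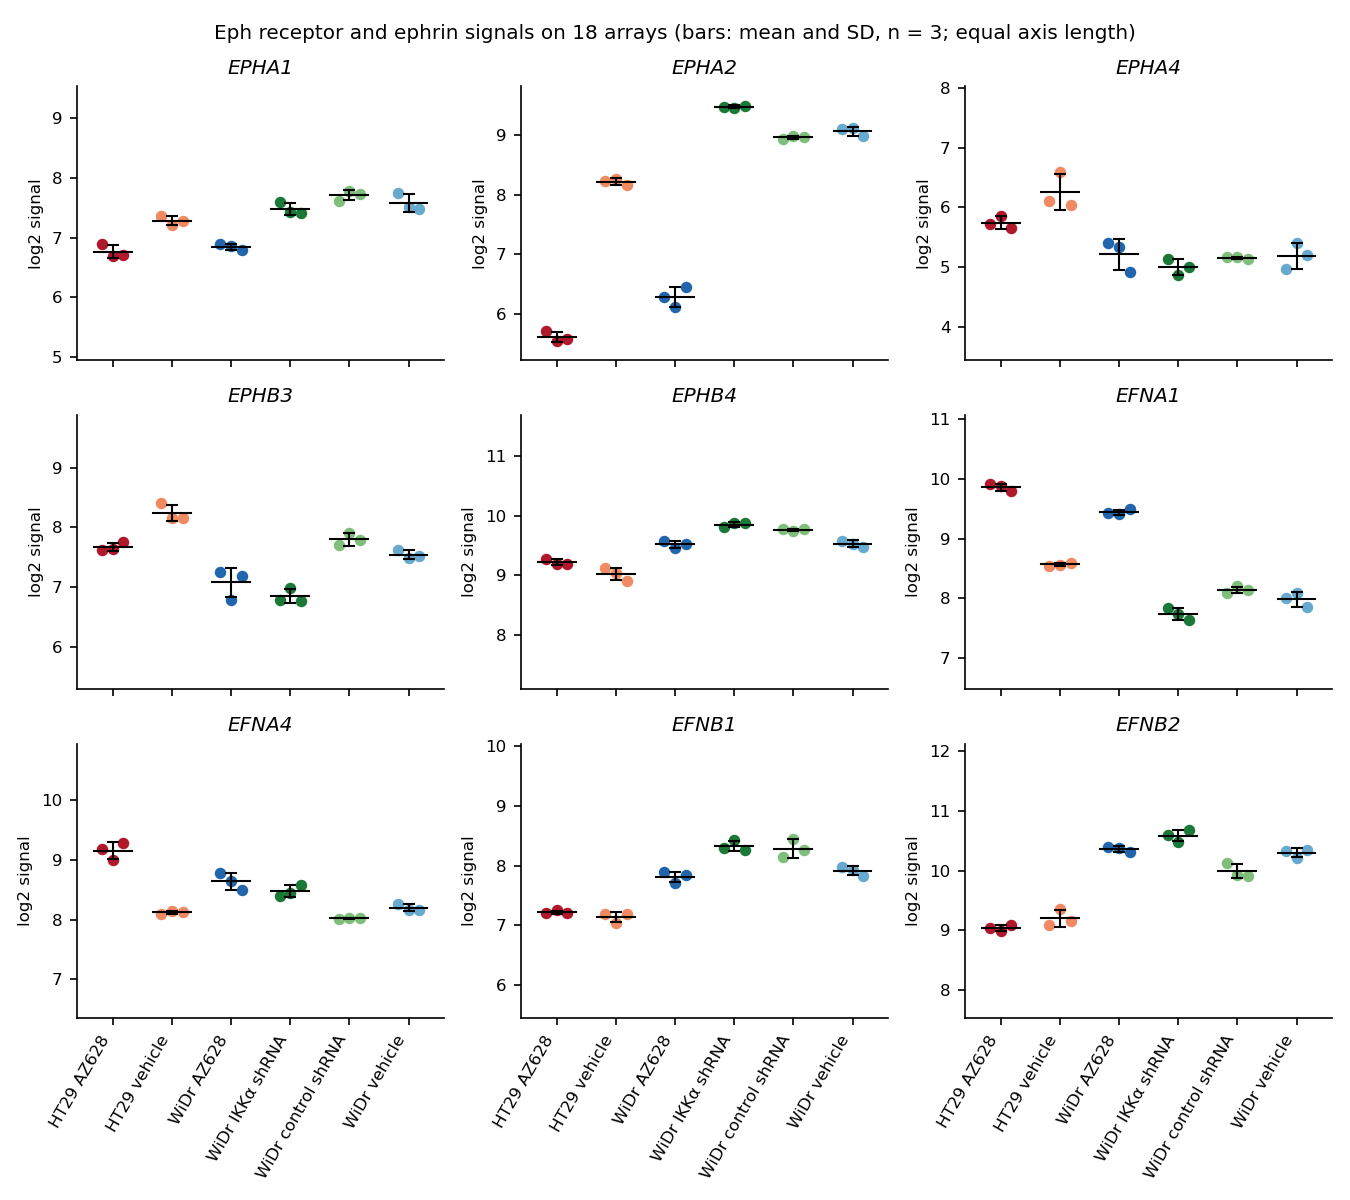
The log2 signal of each of the 9 genes (vertical axes, equal length in every panel) on the 18 arrays in 6 groups, with each point an array and bars for the mean and SD of 3 arrays. EPHA2 spans 3.86 between its highest and lowest group mean and EFNA1 2.12, whereas EPHB4 spans 0.83.

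EPHA2, the receptor for ephrin-A1 that is abundant in many epithelial tumours, had signals of 5.71, 5.55 and 5.59 in HT29 with AZ628, against 8.23, 8.27 and 8.16 in HT29 with vehicle. In WiDr the signals were 6.29, 6.12 and 6.45 with AZ628, against 9.10, 9.12 and 8.98 with vehicle. All 6 AZ628 arrays lay below the other 12. The log2 difference was -2.61 in HT29 (SE 0.07, adjusted p = 2.42e-14), a 6.09-fold fall, and -2.78 in WiDr (SE 0.07, adjusted p = 6.6e-15), a 6.87-fold fall. The effect in HT29 minus that in WiDr was 0.17 (95% interval -0.05 to 0.39, adjusted p = 0.392).

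Knockdown of IKKα went with a higher EPHA2 signal. The arrays read 9.48, 9.45 and 9.50 with IKKα shRNA, against 8.93, 8.98 and 8.97 with control shRNA, and the groups did not overlap. The difference was 0.51 (SE 0.07, adjusted p = 2.22e-05), a 1.43-fold rise. Control shRNA and vehicle did not differ by the test (-0.10, adjusted p = 0.325). In order, EPHA2 was highest with IKKα shRNA, then in WiDr with vehicle and with control shRNA, HT29 with vehicle, WiDr with AZ628 and HT29 with AZ628. Every step of that order passed the test except the one between WiDr with vehicle and with control shRNA. A second, dimmer EPHA2 probe set differed by -1.54 with AZ628 in HT29, -2.17 in WiDr and 0.63 with IKKα shRNA (adjusted p = 4.35e-09, 3.43e-11 and 0.000312 over all probe sets). On that probe set alone the AZ628 effect was smaller in HT29 than in WiDr, by 0.63 (adjusted p = 0.028). With vehicle it read 6.60 in HT29 and 7.29 in WiDr, and with AZ628 5.06 and 5.12. Both AZ628 means lay below 5.37, the limit of the dimmest tercile of genes. They did not differ by the test (-0.06, adjusted p = 0.794 over all probe sets). The part of dim signals in the smaller effect was not tested.

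EFNA1 encodes ephrin-A1, the lipid-anchored ligand of EphA2. Its signals were 9.91, 9.89 and 9.80 in HT29 with AZ628, against 8.55, 8.57 and 8.60 in HT29 with vehicle. In WiDr they were 9.43, 9.41 and 9.49 with AZ628, against 8.002, 8.095 and 7.855 with vehicle. All 6 AZ628 arrays were above all 12 others. The difference was 1.30 in HT29 (SE 0.07, adjusted p = 2.87e-11), a 2.45-fold rise, and 1.46 in WiDr (SE 0.07, adjusted p = 4.6e-12), a 2.75-fold rise. Between the lines the effects differed by -0.17 (adjusted p = 0.359).

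With IKKα shRNA the EFNA1 arrays read 7.84, 7.74 and 7.64, against 8.09, 8.20 and 8.14 with control shRNA. The 3 knockdown arrays were the lowest of all 18. EFNA1 fell by 0.40 (SE 0.07, adjusted p = 9.56e-05), a 1.32-fold fall. Its second probe set differed by 1.14 with AZ628 in HT29, 1.34 in WiDr and -0.42 with IKKα shRNA (adjusted p = 5.77e-09, 5.12e-10 and 0.00112 over all probe sets).

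EPHA2 and EFNA1 thus moved in opposite directions to each other under both treatments, and each moved in opposite directions under AZ628 and under IKKα shRNA. The shRNA effect minus the AZ628 effect in WiDr, each against its own control, was 3.29 for EPHA2 (SE 0.10, adjusted p = 8.91e-14) and -1.86 for EFNA1 (SE 0.09, adjusted p = 2.95e-11). Both effects in this difference come from separate arrays.

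**Figure D2:**
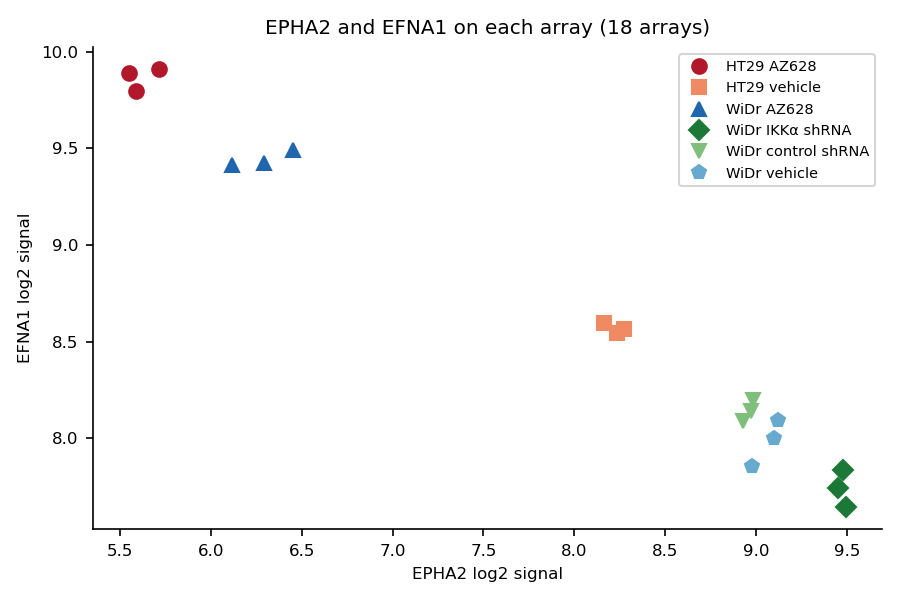
EFNA1 log2 signal (vertical axis) against EPHA2 log2 signal (horizontal axis), with each point 1 of 18 arrays and a marker for each of the 6 groups. The 6 arrays with AZ628 have EPHA2 signals of 6.45 or less and EFNA1 signals of 9.41 or more, and the 3 arrays with IKKα shRNA have the highest EPHA2 and the lowest EFNA1 signals.

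Both genes lie on chromosome 1, and the 250 bases before the gene start are shown for this pair because it carried the largest changes. The sequences are from RefSeq (GRCh38.p14), at chr1:16156070-16156319 on the minus strand for EPHA2 and chr1:155127626-155127875 on the plus strand for EFNA1, with capitals at matches on either strand to GGGCGG, the SP/KLF motif, and to TGACGTCA, the cAMP response element.
EPHA2: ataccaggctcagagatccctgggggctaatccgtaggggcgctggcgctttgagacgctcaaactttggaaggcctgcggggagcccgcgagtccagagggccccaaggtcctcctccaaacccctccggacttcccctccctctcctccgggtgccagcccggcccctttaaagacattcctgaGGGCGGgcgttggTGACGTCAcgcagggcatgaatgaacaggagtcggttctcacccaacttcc
EFNA1: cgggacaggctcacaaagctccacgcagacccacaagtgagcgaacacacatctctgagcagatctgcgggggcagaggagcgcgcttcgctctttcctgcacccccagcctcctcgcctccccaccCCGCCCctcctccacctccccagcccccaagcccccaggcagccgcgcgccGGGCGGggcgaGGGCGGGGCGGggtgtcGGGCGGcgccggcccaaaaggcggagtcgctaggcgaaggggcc

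The EPHA2 window held 1 match to GGGCGG, 64 bases before the start, and 1 to TGACGTCA, 51 bases before it. The EFNA1 window held 5 matches to GGGCGG, 123, 72, 61, 56 and 44 bases before the start, of which those at 61 and 56 overlap. GGGCGG was in windows of all 9 measured members and in 42.6% of 35116 promoter windows of the same length, and TGACGTCA in 1.65% of them and of the members only in EPHA2. That last motif was added after the sequence was seen. CCGGAA (ETS), TGANTCA (AP-1), CTTTGAT (TCF/LEF), CACGTG (E-box) and an NF-κB motif, searched on both strands, had no match in the members' windows and were in 14.5%, 6.57%, 2.26%, 6.34% and 1.73% of all windows. A match is a run of letters and says nothing of binding.

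EPHA1, an epithelial EphA receptor, fell with AZ628 in both lines. The HT29 arrays read 6.88, 6.69 and 6.72 with AZ628, against 7.36, 7.21 and 7.29 with vehicle. WiDr arrays were at 6.89, 6.86 and 6.79 with AZ628, against 7.75, 7.51 and 7.48 with vehicle. The 6 AZ628 arrays were the lowest of all 18. The differences were -0.52 in HT29 (SE 0.08, adjusted p = 3.04e-05) and -0.73 in WiDr (SE 0.08, adjusted p = 4.72e-07). With both EPHA1 probe sets averaged the HT29 value was -0.15 and missed the threshold (adjusted p = 0.0776).

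With IKKα shRNA EPHA1 was 7.59, 7.42 and 7.41, against 7.62, 7.79 and 7.74 with control shRNA. The groups did not overlap, but the highest knockdown array lay just under the lowest control array. The difference of -0.24 (adjusted p = 0.0281) missed the threshold without any of 4 arrays (control shRNA replicate 2 or 3, IKKα shRNA replicate 2 or 3; adjusted p of 0.0737 to 0.109) and against vehicle (-0.10, adjusted p = 0.343). A second, dimmer EPHA1 probe set did not pass for AZ628 in HT29 (0.22), AZ628 in WiDr (-0.11) or IKKα shRNA against control shRNA (-0.03). On that probe set IKKα shRNA passed against vehicle (-0.36, adjusted p = 0.0156 over all probe sets), and so did control shRNA (-0.33, adjusted p = 0.0439). With both probe sets averaged, IKKα shRNA against vehicle was -0.23 and passed (adjusted p = 0.00887).

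EPHA4 binds ephrins of both classes. It was measured in HT29 at 5.71, 5.86 and 5.66 with AZ628, against 6.11, 6.60 and 6.05 with vehicle. In WiDr it read 5.40, 5.33 and 4.92 with AZ628, against 4.97, 5.40 and 5.19 with vehicle. The HT29 groups did not overlap, whereas the WiDr groups did. EPHA4 fell by 0.50 in HT29 (SE 0.14, adjusted p = 0.00754) and differed by 0.03 in WiDr (95% interval -0.27 to 0.33, adjusted p = 0.909). Without HT29 vehicle replicate 2, the highest array, the fall in HT29 was 0.33 and missed the threshold (adjusted p = 0.0565).

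The test between the lines did not pass for this EPHA4 probe set (-0.53, 95% interval -0.96 to -0.10, adjusted p = 0.128). All 4 WiDr group means were below 5.37, the limit of the dimmest tercile of genes. Another EPHA4 probe set, dimmer on average, was 5.85 ± 0.05 in HT29 with AZ628 and 6.61 ± 0.06 in HT29 with vehicle, and between 3.42 and 3.60 in the 4 WiDr groups. Its AZ628 effect was lower in HT29 than in WiDr by 0.93 (adjusted p = 2.45e-05 over all probe sets). The 4 EPHA4 probe sets ranged between -0.76 and -0.35 for AZ628 in HT29, and all 4 passed. With IKKα shRNA EPHA4 was 5.126, 4.869 and 5.002, against 5.16, 5.16 and 5.14 with control shRNA, a difference of -0.15 that did not pass although the groups did not overlap (adjusted p = 0.458).

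EFNA4 encodes ephrin-A4, another lipid-anchored ligand. It read 9.186, 9.001 and 9.284 in HT29 with AZ628, against 8.10, 8.14 and 8.13 with vehicle. In WiDr it was 8.79, 8.64 and 8.49 with AZ628, against 8.26, 8.17 and 8.17 with vehicle. Neither pair of groups overlapped, and the gap was wider in HT29. EFNA4 rose by 1.04 in HT29 (SE 0.08, adjusted p = 5.53e-09), or 2.05-fold, and by 0.44 in WiDr (SE 0.08, adjusted p = 0.000139), or 1.36-fold. The rise was larger in HT29 by 0.59 (SE 0.11, 95% interval 0.36 to 0.83, adjusted p = 0.00197).

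With IKKα shRNA EFNA4 was 8.39, 8.45 and 8.59, against 8.02, 8.02 and 8.03 with control shRNA. It rose by 0.45 (SE 0.08, adjusted p = 0.000175), and the groups did not overlap. The shRNA effect minus the AZ628 effect in WiDr was 0.01 (95% interval -0.22 to 0.25, adjusted p = 0.946). EFNA4, EFNA3 and EFNA1 are neighbouring coding genes on chromosome 1, with a readthrough locus that joins EFNA4 and EFNA3. EFNA4 has 1 probe set, and EFNA3 passed in none of the 3 treatment comparisons.

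EPHB3, one of the EphB receptors of the crypt base and a known Wnt target, fell with AZ628 in both lines and with IKKα shRNA. It was 7.62, 7.64 and 7.75 in HT29 with AZ628, against 8.40, 8.15 and 8.16 with vehicle. In WiDr it was 7.25, 6.79 and 7.19 with AZ628, against 7.62, 7.48 and 7.52 with vehicle. No AZ628 array reached a vehicle array of its line. The differences were -0.57 in HT29 (SE 0.11, adjusted p = 0.00023) and -0.47 in WiDr (SE 0.11, adjusted p = 0.0013), and they differed by -0.10 between the lines (adjusted p = 0.8).

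The IKKα shRNA arrays read 6.78, 6.98 and 6.77 for EPHB3, against 7.69, 7.91 and 7.79 with control shRNA. The groups did not overlap. EPHB3 fell by 0.95 (SE 0.11, adjusted p = 1.19e-06), a 1.94-fold fall and the largest shRNA difference among the 9 genes. The shRNA effect was lower than the AZ628 effect in WiDr by 0.49 (SE 0.15, adjusted p = 0.0129). With vehicle as the control of both, which sets the treated groups against each other, that difference was -0.23 and did not pass (adjusted p = 0.0796). EPHB3 has 1 probe set.

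EPHB4, the receptor of ephrin-B2 best known from blood vessels, had the narrowest span of group means. In HT29 it was 9.27, 9.20 and 9.20 with AZ628, against 9.12, 9.04 and 8.91 with vehicle. WiDr arrays read 9.58, 9.47 and 9.52 with AZ628, against 9.58, 9.53 and 9.48 with vehicle, and the groups overlapped. EPHB4 rose by 0.20 in HT29 (adjusted p = 0.00888) and differed by -0.01 in WiDr (95% interval -0.13 to 0.11, adjusted p = 0.934). The rise in HT29 missed the threshold without HT29 vehicle replicate 3 (0.14, adjusted p = 0.0651), and with the mean of its 5 probe sets it was 0.06 (adjusted p = 0.401). With IKKα shRNA EPHB4 was 9.81, 9.87 and 9.87, against 9.77, 9.75 and 9.77 with control shRNA. These groups did not overlap, but the difference of 0.09 did not pass (adjusted p = 0.283), whereas the mean of the 5 probe sets passed at 0.14 (adjusted p = 0.0299).

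EFNB1 encodes ephrin-B1, a transmembrane ligand of EphB receptors. It did not pass for AZ628 against vehicle in either line or for IKKα shRNA against control shRNA. HT29 arrays read 7.21, 7.25 and 7.20 with AZ628, against 7.19, 7.04 and 7.20 with vehicle, a difference of 0.08 (95% interval -0.09 to 0.24, adjusted p = 0.474). WiDr arrays read 7.89, 7.71 and 7.84 with AZ628, against 7.98, 7.93 and 7.83 with vehicle, a difference of -0.10 (95% interval -0.26 to 0.06, adjusted p = 0.344). The HT29 groups did not overlap, by the third decimal only, and the WiDr groups did. With IKKα shRNA it was 8.29, 8.42 and 8.27, against 8.14, 8.45 and 8.26 with control shRNA, a difference of 0.04 (adjusted p = 0.745).

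EFNB2 encodes ephrin-B2, the main ligand of EphB4. In HT29 it was 9.04, 8.99 and 9.10 with AZ628, against 9.09, 9.36 and 9.16 with vehicle (-0.16, adjusted p = 0.117). In WiDr it was 10.39, 10.39 and 10.31 with AZ628, against 10.33, 10.21 and 10.35 with vehicle (0.07, adjusted p = 0.563). AZ628 arrays overlapped vehicle arrays in both lines. With IKKα shRNA EFNB2 was 10.60, 10.49 and 10.68, against 10.13, 9.93 and 9.92 with control shRNA. The knockdown arrays were the highest of all 18, and EFNB2 rose by 0.59 (SE 0.08, adjusted p = 8.28e-06), or 1.51-fold. Its 4 probe sets ranged from 0.38 to 0.60, and the lowest did not pass (adjusted p = 0.12 over all probe sets). The shRNA effect was higher than the AZ628 effect in WiDr by 0.53 (adjusted p = 0.000678). For that difference the other probe sets gave 0.41, 0.45 and 0.45, and only the first passed (adjusted p = 0.0447, 0.134 and 0.188 over all probe sets).

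**Figure D3:**
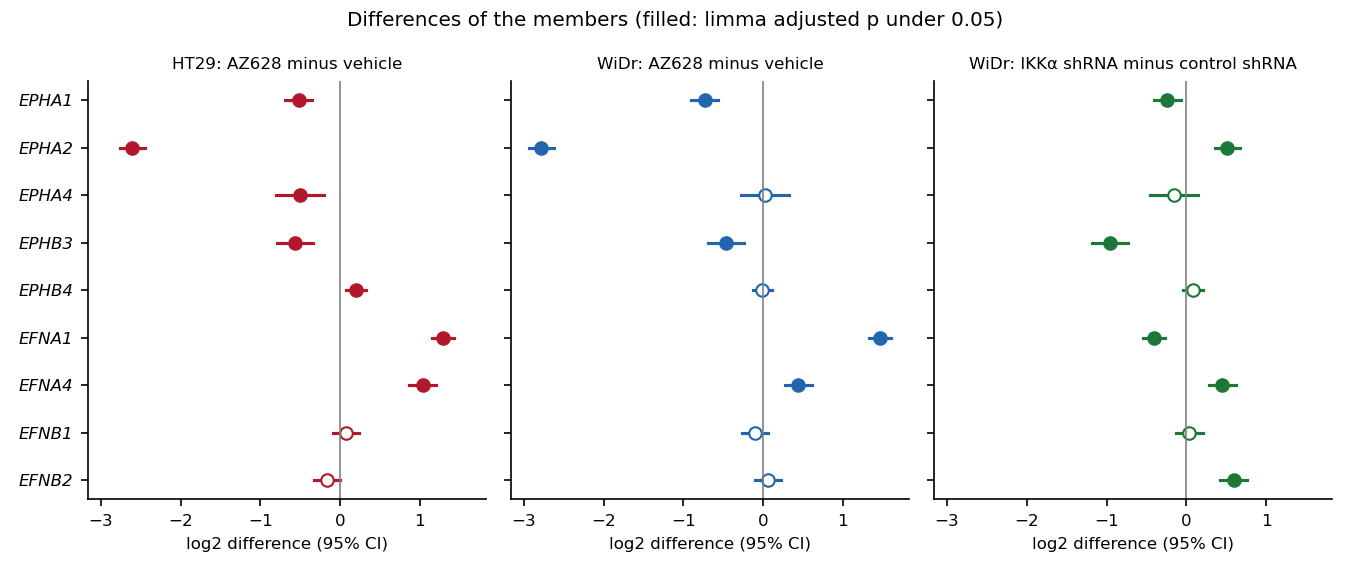
Log2 differences of the 9 genes (horizontal axes, bars for 95% intervals) for AZ628 against vehicle in HT29 and in WiDr and for IKKα shRNA against control shRNA, with filled points where the limma adjusted p was under 0.05. EPHA2 lies at -2.61, -2.78 and 0.51 and EFNA1 at 1.30, 1.46 and -0.40.

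Of the 9 genes, 3 rose and 4 fell with AZ628 in HT29, where 43.6% of all genes passed, 22.5% higher and 21% lower. In WiDr 2 rose and 3 fell with AZ628, where 44.6% of all genes passed, 23.4% higher and 21.1% lower. Among the same genes 3 rose and 3 fell with IKKα shRNA, where 34.9% of all genes passed, 15.9% higher and 19% lower. The groups did not overlap for 8, 5 and 8 of the 9 genes with AZ628 in HT29, with AZ628 in WiDr and with IKKα shRNA, against 49.1%, 51.1% and 46.7% of all genes. The median difference of the 9 genes was -0.16 in HT29 with AZ628, -0.01 in WiDr with AZ628 and 0.04 with IKKα shRNA, and over all genes it was 0.00, 0.00 and 0.02. At a minimum of 2-fold, 3, 2 and 0 of the genes passed, against 7.25%, 8.68% and 3.77% of all genes. For the difference of the AZ628 effects between HT29 and WiDr, 1 of the 9 passed, EFNA4, which was higher; 9.19% of all genes passed, 4.06% higher and 5.13% lower. For the shRNA effect minus the AZ628 effect, 3 were higher and 2 lower, where 42.4% of all genes passed, 20.1% higher and 22.3% lower.

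**Figure D4:**
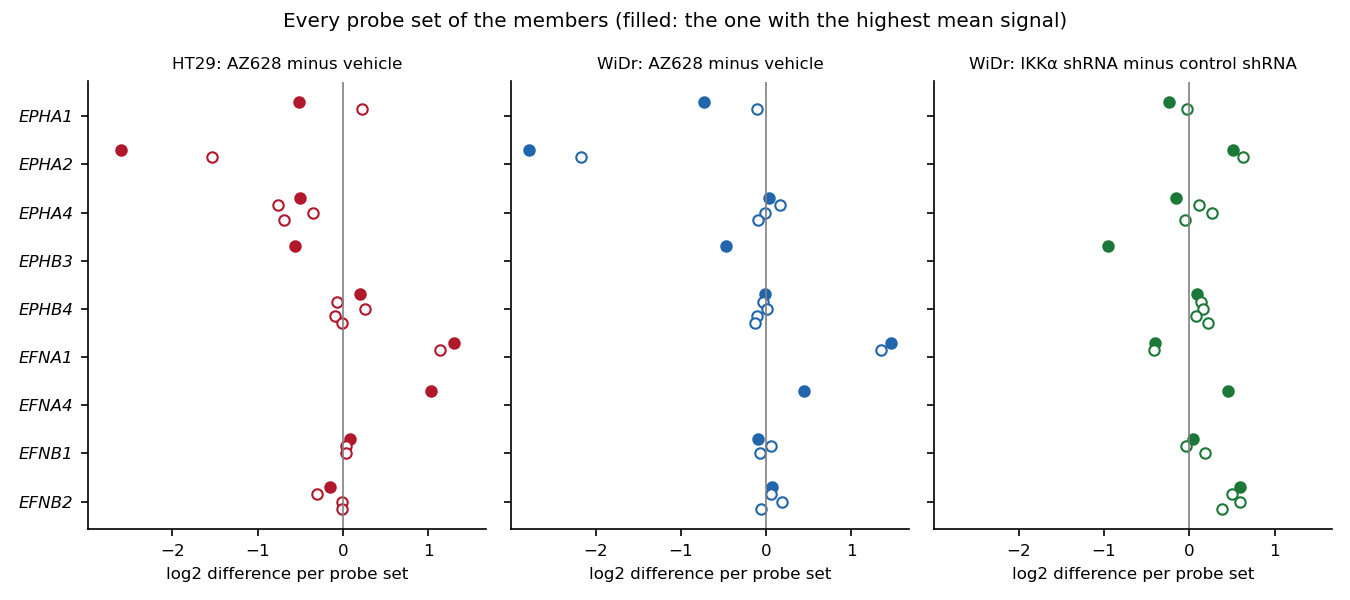
Log2 difference of each of the 24 probe sets (horizontal axes), by gene, for AZ628 against vehicle in HT29 and in WiDr and for IKKα shRNA against control shRNA, with filled points for the probe set of highest mean signal. Both EPHA2 probe sets and both EFNA1 probe sets lie on the same side of 0 as each other in every comparison, whereas the 2 EPHA1 probe sets lie on opposite sides for AZ628 in HT29 (-0.52 and 0.22).

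The lines differed in most of these genes before any treatment. With vehicle, HT29 was above WiDr for EPHA4 (1.06, adjusted p = 1.3e-05), EPHB3 (0.70, adjusted p = 4.83e-05) and EFNA1 (0.59, adjusted p = 1.77e-06). HT29 was below WiDr for EFNB2 (-1.10, adjusted p = 6.58e-09), EPHA2 (-0.84), EFNB1 (-0.77), EPHB4 (-0.51) and EPHA1 (-0.30, adjusted p = 0.00794). EFNA4 did not pass (-0.08, adjusted p = 0.539). These are 3 higher and 5 lower of 9 genes, where 32.2% of all genes passed, 16.9% higher and 15.3% lower. On their brightest probe sets, both class B ephrins and EPHB4 were lower in HT29, and EPHB3 was higher. The other EPHB4 probe sets differed by -0.32 (adjusted p = 0.0127 over all probe sets), -0.09, -0.07 and 0.03, of which only the first passed.

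With AZ628 in both lines, 4 genes were higher and 4 lower in HT29 than in WiDr, where 34.4% of all genes passed, 17.2% higher and 17.2% lower. EFNA4 was then higher in HT29 by 0.52 (adjusted p = 4.64e-05), and EPHA1 did not pass (-0.08, adjusted p = 0.497). EPHB4 was lower (-0.30, adjusted p = 0.000478), but with its probe sets averaged it was -0.08 and did not pass (adjusted p = 0.241). EFNB2 was lower by 1.32 on the log2 scale in HT29, the largest gap with AZ628 on the brightest probe sets (adjusted p = 5.02e-10). Another EPHA4 probe set, dimmer on average, was higher in HT29 by 2.25 with AZ628 and by 3.18 with vehicle (adjusted p = 2.88e-13 and 4.69e-15 over all probe sets). Its WiDr signals lay below the limit of the dimmest tercile of genes.

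Over the 6 groups, each gene had its own order of levels, except that EFNB1 and EPHB4 shared one. EFNA1 was highest in HT29 with AZ628, then in WiDr with AZ628, HT29 with vehicle, WiDr with control shRNA and with vehicle, and with IKKα shRNA, and only control shRNA and vehicle did not differ by the test (adjusted p = 0.0893). EFNA4 ran from HT29 with AZ628 through WiDr with AZ628, IKKα shRNA, vehicle, HT29 with vehicle and control shRNA. Of these steps only that from HT29 to WiDr with AZ628 and that from IKKα shRNA to vehicle passed (adjusted p = 4.64e-05 and 0.0104). EFNB2 was highest with IKKα shRNA and lowest in HT29 with AZ628, and neither AZ628 group differed from the vehicle group of its line. EFNB1 and EPHB4 ran in the same order, from IKKα shRNA through control shRNA, vehicle and AZ628 in WiDr to AZ628 and vehicle in HT29. For both, the steps from control shRNA to vehicle and from WiDr to HT29 with AZ628 passed. The step between the HT29 groups passed for EPHB4 (adjusted p = 0.00888) and not for EFNB1 (adjusted p = 0.474), and the remaining steps did not pass. For EPHA1 no step between neighbours among the first 4 groups, led by control shRNA, passed, and both AZ628 groups lay below them. Some pairs further apart among these groups did pass. IKKα shRNA was under control shRNA (-0.24, adjusted p = 0.0281) and HT29 under WiDr with vehicle (-0.30, adjusted p = 0.00794). EPHB3 was highest in HT29 with vehicle and lowest with IKKα shRNA, where the step from WiDr with AZ628 did not pass (adjusted p = 0.0796). EPHA4 separated the lines, with both HT29 groups above the 4 WiDr groups, which did not differ step by step.

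Some genes moved with the control shRNA alone. Against vehicle in WiDr, control shRNA went with higher EFNB1 (0.37, adjusted p = 0.00315) and EPHB4 (0.23, adjusted p = 0.00986) and lower EFNB2 (-0.30, adjusted p = 0.011), and the other 6 did not pass. Of all genes 22.2% passed, 11.6% higher and 10.6% lower. With probe sets averaged, EFNB2 was -0.06 (adjusted p = 0.584) and EPHB4 -0.06 (adjusted p = 0.343), and neither passed. EFNA1, at 0.16 on its brightest probe set (adjusted p = 0.0893), was 0.22 when averaged in this way and passed (adjusted p = 0.0255). EFNB1 was 0.34 and did not pass without probe sets that may bind several transcripts (adjusted p = 0.104). With vehicle as the control, the IKKα shRNA difference of EFNB2 on its brightest probe set was 0.29 (adjusted p = 0.00727), under its 0.59 against control shRNA. The other EFNB2 probe sets differed by 0.60, 0.59 and 0.34 against vehicle (adjusted p = 0.000324, 0.00745 and 0.165 over all probe sets). Against control shRNA they differed by 0.60, 0.50 and 0.38. With vehicle as the control EPHB3 differed by -0.70, EPHA2 by 0.41, EFNA1 by -0.24 and EFNA4 by 0.28, and all 4 passed. The second EFNA1 probe set differed by -0.15 against vehicle and did not pass (adjusted p = 0.23 over all probe sets). EPHB4 (0.32) and EFNB1 (0.41) passed against vehicle and did not pass against control shRNA. For EPHB4 this turned round with its probe sets averaged, at 0.08 against vehicle (adjusted p = 0.229) and 0.14 against control shRNA (adjusted p = 0.0299). Without probe sets that may bind several transcripts EFNB1 was 0.30 against vehicle and did not pass (adjusted p = 0.134). Against vehicle 5 genes rose and 2 fell, where 36.3% of all genes passed, 16.4% higher and 19.8% lower, and that comparison shares its vehicle arrays with the AZ628 comparison in WiDr.

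The other 12 genes of both families were all measured, 8 of them in the dimmest tercile of genes. EPHB6, a receptor that lacks kinase activity, rose with AZ628 in HT29 (0.30, adjusted p = 0.0039) and in WiDr (0.37, adjusted p = 0.000498) and with IKKα shRNA (0.87, adjusted p = 6.91e-08). EFNA5, another class A ephrin, fell with AZ628 where EFNA1 and EFNA4 rose, with differences of -1.02 in HT29 (adjusted p = 8.23e-09) and -0.83 in WiDr (adjusted p = 1.05e-07). With IKKα shRNA EFNA5 differed by 0.10 and did not pass (adjusted p = 0.364). EPHA10, a receptor without kinase activity, was lower (-0.70, adjusted p = 0.000503) and EPHA6 higher (0.29, adjusted p = 0.0202) with IKKα shRNA, both from signals in the dimmest tercile. No other gene of the 12 passed in these 3 comparisons.

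Among 35 measured genes of Eph signalling (adaptors, exchange factors, kinases and the proteases that shed ephrins), 10 rose and 8 fell with AZ628 in HT29, 14 rose and 10 fell in WiDr, and 12 rose and 12 fell with IKKα shRNA. For comparison, 22.5% of all genes rose and 21% fell with AZ628 in HT29, 23.4% and 21.1% in WiDr, and 15.9% and 19% with IKKα shRNA. The list medians were 0.00, -0.01 and 0.05, and those of all genes 0.00, 0.00 and 0.02. FYN, a SRC family kinase that acts below Eph receptors, fell with AZ628 (-1.44 in HT29 and -1.39 in WiDr) and rose by 1.18 with IKKα shRNA (adjusted p = 1.25e-11, 1.41e-11 and 3.4e-10). VAV3, an exchange factor, rose by 2.04 in HT29 and 0.84 in WiDr with AZ628 and differed by 0.02 with IKKα shRNA (adjusted p = 0.931). KALRN, an exchange factor for Rac, rose by 0.92 with AZ628 in WiDr, fell by 1.08 with IKKα shRNA and differed by 0.00 in HT29 (adjusted p = 0.981).

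Of 21 crypt base and Wnt target genes, 5 rose and 6 fell with AZ628 in HT29, 7 rose and 5 fell in WiDr, and 4 rose and 5 fell with IKKα shRNA, with medians of 0.01, 0.01 and 0.03. Of all genes 43.6%, 44.6% and 34.9% passed in these comparisons. The genes did not share the direction of EPHB3. LGR5, a stem cell receptor, fell with AZ628 (-2.19 in HT29 and -3.59 in WiDr), whereas AXIN2, a feedback inhibitor of Wnt signalling, rose by 1.36 and 1.43. CD44, a hyaluronan receptor, fell in both lines (-0.98 and -2.08). With IKKα shRNA the Wnt target SP5 fell by 1.36 (adjusted p = 2.1e-10) and AXIN2 rose by 0.62 (adjusted p = 4.91e-07), while LGR5 differed by -0.24 (adjusted p = 0.333).

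Of 22 surface and differentiated epithelium genes, 11 rose and 5 fell with AZ628 in HT29, 8 rose and 5 fell in WiDr, and 4 rose and 9 fell with IKKα shRNA, with medians of 0.20, 0.05 and -0.20. Over all genes the shares that rose were 22.5%, 23.4% and 15.9%, and those that fell 21%, 21.1% and 19%. FABP1, a fatty acid binding protein of enterocytes, rose by 2.04 and 2.81 with AZ628 in HT29 and WiDr and fell by 2.05 with IKKα shRNA (adjusted p = 4.73e-11). The adhesion gene CEACAM1 fell with AZ628 (-1.96 in HT29 and -3.52 in WiDr) and rose by 0.54 with IKKα shRNA. SI, the brush border sucrase-isomaltase, rose by 5.14 and 2.99 with AZ628 and differed by 0.02 with IKKα shRNA (adjusted p = 0.946).

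Of 23 adhesion genes of epithelium, 10 rose and 7 fell with AZ628 in HT29, 9 rose and 8 fell in WiDr, and 6 rose and 6 fell with IKKα shRNA, with medians of 0.12, 0.03 and -0.07, where 43.6%, 44.6% and 34.9% of all genes passed. The tight junction gene OCLN rose by 1.74 and 1.63 with AZ628 in HT29 and WiDr, and CLDN2, a pore-forming claudin, fell (-4.68 and -1.68). The claudin gene CLDN3 fell by 1.42 and ITGA2, a collagen receptor subunit, rose by 1.29 with IKKα shRNA. CDH1, the E-cadherin gene, rose by 0.75 and 0.78 with AZ628 and differed by -0.10 with IKKα shRNA (adjusted p = 0.172). Of 15 ERK output genes, 15 fell in HT29 and 14 in WiDr with AZ628, and 5 rose and 2 fell with IKKα shRNA.

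The summed marker lists of cell types also differed between groups. With IKKα shRNA the 10 colon epithelium markers averaged 10.31 to 10.36 per array, against 10.71 to 10.74 with control shRNA, with LGALS4 at 10.97 ± 0.09 against 12.68 ± 0.04 and VIL1 at 9.02 ± 0.04 against 10.18 ± 0.05 (SD, n = 3 each), whereas EPCAM was 13.28 ± 0.19 against 13.35 ± 0.12. The 7 fibroblast markers averaged 4.70 to 4.80, against 4.21 to 4.25. Most of that lay in LUM, at 6.32 ± 0.20 against 3.49 ± 0.22, with COL3A1 (3.57 against 3.07) and PDGFRB (5.34 against 5.07) higher too. COL1A1 was 5.56 against 5.52, COL1A2 4.34 against 4.28, THY1 4.80 against 4.75 and DCN 3.39 against 3.41. The 5 endothelium markers averaged 5.50 to 5.65, against 5.27 to 5.33, with TEK at 6.63 against 5.44, KDR at 5.52 against 5.17 and PECAM1 at 5.73 against 5.85. The 5 blood markers averaged 5.06 to 5.14, against 5.30 to 5.45, with CD14 at 4.56 against 5.81 and PTPRC at 3.15 in both. In HT29 the fibroblast markers averaged 4.66 to 4.74 with AZ628, against 4.41 to 4.58 with vehicle, again through LUM (6.18 against 4.41), while COL1A1, COL1A2, COL3A1 and DCN had slightly lower means with AZ628. The colon epithelium markers averaged 10.93 to 10.96 there with AZ628, against 10.62 to 10.64 with vehicle, but they did not move together. VIL1 (11.25 against 10.40), CDH17, CDH1, CDX2 and KRT19 were higher, whereas KRT18 (13.88 against 14.31) and KRT8 (13.16 against 13.37) were lower. Arrays of the 2 groups overlapped for EPCAM, LGALS4 and CDX1. In WiDr the same list averaged 10.77 to 10.83 with AZ628, against 10.49 to 10.57 with vehicle, and it was split as well. VIL1 (10.42 against 9.43), CDH1, KRT19 and CDH17 were higher with AZ628. KRT18 (13.92 against 14.37), KRT8 (13.18 against 13.50) and LGALS4 (12.22 against 12.47) were lower. For EPCAM, CDX1 and CDX2 the WiDr arrays overlapped. Of the lists, 5 of 7 fibroblast, 2 of 5 endothelium and 3 of 5 blood markers lay in the dimmest tercile of genes. The part of these markers in the changes of the Eph receptors and ephrins was not tested.

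The 3 genes most like each member were taken by Pearson's r over the 18 arrays among 8860 genes of higher spread. For EPHA2 they were MTHFD1L (r = 0.997), EMP1 (0.993) and RPF2 (0.993), and for EFNA1 BBS4 (0.995), NREP (0.992) and HDAC5 (0.991). EPHA1 was most like FAM86C1P (0.984), EPHB3 like NRM (0.964), EFNA4 like MEX3B (0.967) and SOX4 (0.967), and EFNB2 like WNT11 (0.977) and CLEC3A (0.977). EPHB4 was most like KCNJ14 (0.983), EFNB1 like CHPF2 (0.978) and EPHA4 like MPV17 (0.926). These values describe 18 arrays that fall in 6 groups and therefore follow the group means. Over the 6 group means, 7 of the 27 genes were again among the 3 most alike.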

How the data were processed

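The authors deposited 1 table of log2 signals, a value per probe set and array, for 18 arrays. RMA, limma and R 3.0.2 are named in the submitters' processing notes. From 100 ng of total RNA per sample, biotin-labelled target was made, per the labels. RMA brings all arrays towards one distribution, which hides a shift common to most transcripts, and it shrinks differences of dim genes. Over the genes used here, array medians still ran from 6.77 with IKKα shRNA to 6.91 in HT29 with AZ628. Arrays have no read depth, and the number of arrays limits the precision.

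Of 49395 probe sets (102 controls among them), the platform annotation, which can be old, gave 44994 a single symbol, 1832 several and 2569 none. For each of 18132 genes the brightest probe set on average was used, with no filter on dim genes. EPHB2 was not analysed here. Missing list genes were not analysed here. No column of other samples was present (0 columns).

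A linear model with 6 group means was fitted to all arrays with limma 3.58.1 in R 4.3.3 (with version 1.17.8 of data.table), with eBayes (12 residual and 4.49 prior degrees of freedom) and p-values adjusted by Benjamini-Hochberg over the genes of each of 9 contrasts. The threshold was an adjusted p of 0.05, two-sided. Values per probe set come from the same model on all 44994 probe sets, adjusted over them. The model was tested on simulated data. Plots were made with matplotlib 3.10.9 (Python 3.11.15). Promoter windows are RefSeq's for GRCh38.p14. Alternatives covered the choice of probe set, dim genes, scaling, the prior variance, the arrays in the fit, the replicate block, a 2-fold minimum, another control and leaving out each array.

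The members and the gene lists were chosen with earlier results of these data known. All members are named. Of each list, up to 4 passing genes of largest size and 1 other per contrast could be named, all other Eph and ephrin genes, CHUK and DUSP6 as checks, and the 3 genes most like each member; not all are printed. Marker genes were named after their values were seen.

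Replicate numbers in the labels were checked for pairing: over 21 pairs of same-numbered arrays the deviations from the group means correlated between -0.233 and 0.246, with 2 over 0.1, so the numbers were not taken as pairs. The design text writes the inhibited HT29 arrays as HT28, and the labels of the IKKα shRNA arrays also hold the word control; both were read from the titles. The labelling assay named there is for whole transcripts, but the probe sets are named as on 3′ arrays, which was not resolved.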

Additional observations from a re-analysis of the deposited data

Results flagged for a closer look

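EFNA4, the gene of the class A ligand ephrin-A4, rose with AZ628 in both lines and differed between them by the test of the difference itself. The log2 rise was 1.04 in HT29 and 0.44 in WiDr, and the effect in HT29 minus that in WiDr was 0.59 (SE 0.11, adjusted p = 0.00197, limma over all genes). All 3 treated arrays lay above all 3 vehicle arrays in each line. With vehicle, EFNA4 was 8.12 ± 0.02 in HT29 and 8.20 ± 0.06 in WiDr (SD, n = 3 each). With AZ628 it was 9.16 ± 0.14 in HT29 and 8.64 ± 0.15 in WiDr. The difference ranged from 0.52 to 0.67 over the alternatives in which EFNA4 was measured, and its 1 probe set leaves no second measurement on these arrays.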

How the results depend on the processing

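The 81 gene results (9 genes in 9 comparisons) were recomputed under each alternative that applied to them: 45 without probe sets that may bind several transcripts, 9 each with vehicle as another control, and those whose comparison held the array left out. The fits with every probe set as its own entry, without the dimmest tercile of genes, with a trend or a robust prior variance, and with the replicate block kept all 81 on their side of the threshold and in their direction; the block left the counts of genes passed at 7 with AZ628 in HT29, 5 in WiDr and 6 with IKKα shRNA. Quantile normalization, median centring and a fit of the comparison's arrays alone each changed the call of 3 of 81: EPHA1 with IKKα shRNA was lost under the first 2 (adjusted p = 0.0551 and 0.0563), EPHB4 with AZ628 in HT29 under the last 2 (0.0653 and 0.0617), EPHB4 for control shRNA against vehicle under the first (0.0842) and EFNA1 for IKKα shRNA against vehicle under the last (0.0536), while EFNA4 (-0.26, 0.0134) and EPHB3 (0.26, 0.0457) for control shRNA against vehicle and EFNB2 with AZ628 in HT29 (-0.22, 0.0358) were gained. EPHA2 ranged from -2.67 to -2.07 with AZ628 in HT29, -2.86 to -2.47 in WiDr and 0.41 to 0.57 with IKKα shRNA, and EFNA1 from 1.22 to 1.33, 1.39 to 1.52 and -0.45 to -0.24.

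At a 2-fold minimum the genes passed numbered 3 with AZ628 in HT29, 2 in WiDr, 0 with IKKα shRNA against control shRNA, 0 for the difference between lines, 2 for the shRNA effect minus the AZ628 effect, 2 for HT29 against WiDr with vehicle and 1 with AZ628, 0 for control shRNA against vehicle and 0 for IKKα shRNA against vehicle. Of all genes, 7.25%, 8.68% and 3.77% passed in the first 3 of these comparisons. The other counts stand without such a share and are not read as results about the genes. Without probe sets that may bind several transcripts only 5 genes were measured, and EFNB1 lost its call for HT29 against WiDr with vehicle (-0.34, adjusted p = 0.0987) and with AZ628 (-0.37, 0.0682) and for IKKα shRNA (0.30, 0.134) and control shRNA (0.34, 0.104) against vehicle, while EPHA4 passed for the last (-0.33, 0.0221). The counts were 3, 2, 0 (difference between lines), 3 (shRNA minus AZ628), 4 and 4 (HT29 against WiDr with vehicle and with AZ628) and 3 (IKKα shRNA against vehicle); EPHA4 then turned to 0.27 with IKKα shRNA (adjusted p = 0.0352), on another probe set. With probe sets of a gene averaged, 68 of the 81 kept their call, 3 genes passed for the difference between lines, adding EPHA2 (0.40, adjusted p = 0.00636) and EPHA4 (-0.60, adjusted p = 0.000163), and EPHB4 turned to -0.06 for control shRNA against vehicle (adjusted p = 0.343).

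Leaving out each array in turn gave 6 to 8 genes with AZ628 in HT29, 5 to 5 in WiDr, 5 to 6 with IKKα shRNA, 1 to 2 for the difference between lines (2 without WiDr AZ628 replicate 3, where EPHA4 was -0.68, adjusted p = 0.0362), 5 to 5 for the shRNA effect minus the AZ628 effect, 7 to 8 and 7 to 8 between the lines with vehicle and with AZ628, 3 to 3 for control shRNA against vehicle and 6 to 7 for IKKα shRNA against vehicle. Over all genes, 8079, 7899 and 6323 passed for AZ628 in WiDr, AZ628 in HT29 and IKKα shRNA, against 1573, 1314 and 684 at 2-fold. The causes were not tested. Signals near the dim limit, as for EPHA4 in WiDr, limit what the arrays can show.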
